A study of Homo sapiens with 20 samples.

Results

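The mitochondrial genome of human cells carries 37 genes, and all 37 were found among the 57087 genes with transcripts in the data. They were taken as every gene with a symbol starting MT-, which gave 13 protein-coding, 2 ribosomal RNA (rRNA) and 22 transfer RNA (tRNA) members, and the estimated counts of each gene's transcripts were summed. The study used HEK293T and HEK293T-REx cells, as the paper names these lines of embryonic kidney origin. It compared wild type (wt) cells with knockdowns of 3 enzymes of the small RNA pathways. Dicer and Drosha cut precursors of small RNAs, and Ago2 carries small RNAs to their targets. Total cellular RNA (mRNA-seq) was sequenced from 3 wt and 3 shDicer samples, and chromatin-associated RNA (chrRNA-seq) from 2 wt, 2 shDicer, 2 shAgo2 and 2 shDrosha samples.

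In mRNA-seq, wt samples are labelled HEK293T and shDicer samples HEK293 2B, and both received doxycycline at 3 µg/ml for 7 days. For chrRNA-seq, the shDicer and shAgo2 cells carry an shRNA cassette that doxycycline switches on, and they were treated at 3 µg/ml for 72 h. The methods give Drosha knockdown by plasmid transfection, and doxycycline is not stated for the chrRNA-seq wt or shDrosha cells. In chrRNA-seq, doxycycline, the inducible line and the knockdown therefore cannot be told apart, while in mRNA-seq both arms had doxycycline and line and knockdown cannot be told apart. No line with a control shRNA is among these samples, and each inducible line is compared as a single line.

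Mitochondria transcribe their small circular genome from a heavy-strand and a light-strand promoter as long precursors, which are cleaved at the tRNAs that lie between the other genes. The mRNAs encode core subunits of the respiratory chain and of ATP synthase, and they are translated by mitochondrial ribosomes inside the organelle. Doxycycline is a tetracycline, a class of antibiotics that also binds mitochondrial ribosomes and slows their translation. Mitochondrial transcripts are not made on nuclear chromatin, so their reads in a chromatin fraction can come from material carried over from the cytoplasm or from nuclear copies of mitochondrial DNA.

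The genome is packed so tightly that several members share or abut bases, which decides how reads can be assigned to them. The sequences below are from hg38, with positions on chrM. The first shows the end of MT-CO1 at chrM:7416-7475 on the plus strand, with the last 3 bases of MT-CO1, its stop codon, in capitals: 0 bases separate it from MT-TS1, which lies on the opposite strand. The second shows MT-ATP8 and MT-ATP6 at chrM:8517-8582, with the 46 bases they share in capitals. The third shows MT-ND4L and MT-ND4 at chrM:10740-10786, with the 7 shared bases in capitals.
MT-CO1 end: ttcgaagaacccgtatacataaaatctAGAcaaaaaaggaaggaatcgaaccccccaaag
MT-ATP8/MT-ATP6: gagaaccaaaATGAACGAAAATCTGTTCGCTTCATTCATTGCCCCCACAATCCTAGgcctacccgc
MT-ND4L/MT-ND4: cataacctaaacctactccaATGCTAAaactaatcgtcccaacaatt

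The tRNA members that passed the test in some comparison are shown next, each 5′ to 3′ on its own strand with the anticodon in capitals. MT-TS1 (chrM:7446-7514), MT-TY (chrM:5826-5891), MT-TA (chrM:5587-5655), MT-TP (chrM:15956-16023) and MT-TQ (chrM:4329-4400) lie on the minus strand, and MT-TL2 (chrM:12266-12336) lies on the plus strand. They carry serine, tyrosine, alanine, proline, glutamine and leucine, in the order MT-TS1, MT-TY, MT-TA, MT-TP, MT-TQ and MT-TL2.
MT-TS1: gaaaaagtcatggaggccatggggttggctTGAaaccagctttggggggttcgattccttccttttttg
MT-TY: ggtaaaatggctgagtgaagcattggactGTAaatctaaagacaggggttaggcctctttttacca
MT-TA: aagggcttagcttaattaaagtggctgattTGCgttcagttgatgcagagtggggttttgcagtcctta
MT-TP: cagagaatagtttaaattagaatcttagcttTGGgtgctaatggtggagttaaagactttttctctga
MT-TQ: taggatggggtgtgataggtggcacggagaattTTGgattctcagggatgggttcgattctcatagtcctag
MT-TL2: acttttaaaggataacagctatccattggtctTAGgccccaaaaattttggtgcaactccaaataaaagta

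The libraries held 10216430 to 17215978 estimated counts in mRNA-seq and 17484067 to 21553760 in chrRNA-seq. DICER1 fell in the mRNA-seq shDicer samples from 247 ± 13.5 to 87.8 ± 6.92 CPM (counts scaled to library size; SD, n = 3; log2 fold change −1.49, adjusted p = 1.28e-07). In chrRNA-seq, AGO2 fell by 0.62 on the log2 scale in shAgo2 (adjusted p = 9.29e-05), DICER1 did not pass the test in the libraries labelled shDicer (log2 fold change −0.18, adjusted p = 0.166), and DROSHA did not fall in the libraries labelled shDrosha (log2 fold change 0.069, adjusted p = 0.697). These libraries hold chromatin-associated RNA, and the paper checked the knockdowns by other means. It measured the steady-state RNA of Drosha, Dicer and Ago2 by qRT-PCR in the chrRNA-seq samples. It also reports their successful knockdown by western blot. A list of 5 transcripts of the cell line (VIM, NEFL, NEFM, ENO2 and PAX2) summed to 0.683, 0.615 and 0.630 times wt in the chrRNA-seq samples labelled shDicer, in shAgo2 and in those labelled shDrosha, and to 2.05 times wt in mRNA-seq shDicer. Its members moved in opposite directions: in chrRNA-seq the neurofilament mRNA NEFL rose by 3.73 and 2.91 on the log2 scale in the samples labelled shDicer and in shAgo2, whereas NEFM, another neurofilament mRNA, fell by 3.28 and 4.71 and VIM by 1.50 and 1.21. Markers of leukocytes, liver and muscle (PTPRC, ALB and MYH7) summed to 0.139 to 0.396 CPM in mRNA-seq and 1.29 to 2.39 CPM in chrRNA-seq. No label says that replicates came from separate cultures, so the p-values here measure only the spread between these samples.

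The share of all counts that fell on the 37 members was larger in every shDicer, shAgo2 and shDrosha group, as labelled, than in its wt group. In mRNA-seq the share was 0.161%, 0.174% and 0.178% in the 3 wt samples and 0.222%, 0.244% and 0.281% in the 3 shDicer samples. In chrRNA-seq it was 0.426% and 0.458% in wt, 0.623% and 0.531% in the samples labelled shDicer, 0.708% and 0.711% in shAgo2, and 0.537% and 0.574% in the samples labelled shDrosha. No sample with one of these shRNA labels overlapped with its wt group. The 95% Wilson intervals, which cover counting error only, were at most 0.00371 percentage points to either side, less than the SD between replicates in every group other than shAgo2.

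The mean share in shDicer was 1.46 times that of wt in mRNA-seq (exact permutation test, two-sided, p = 0.1, the smallest p that 3 against 3 can give). In chrRNA-seq it was 1.30 times wt in the samples labelled shDicer, 1.60 times in shAgo2 and 1.26 times in those labelled shDrosha, and the exact two-sided permutation p was 0.333 in each, the smallest that 2 against 2 can give. The 4 chrRNA-seq samples of the doxycycline-treated inducible lines had 1.29 times the share of the 4 other samples, with overlapping values (exact permutation p = 0.0857; 0.3 after adjustment over 6 comparisons). None of these tests passed, and the 3 chrRNA-seq ratios share the same wt libraries. In these bulk samples, a difference in the number of mitochondria per cell and one in the RNA of each mitochondrion cannot be told apart.

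The mRNA-seq ratio depended on the scale. As a share of TPM (transcript abundance corrected for length and library size), the members took 0.167%, 0.182% and 0.179% in wt and 0.146%, 0.169% and 0.218% in shDicer, a ratio of 1.01. RN7SL1, RN7SL2, RN7SK, RMRP and RPPH1, 5 short non-coding RNAs named after their values were seen, took 39.2% to 41.5% of the TPM in mRNA-seq wt and 49.0% to 58.1% in shDicer. They took 1.68% to 2.97% of it in chrRNA-seq. Among protein-coding genes alone, the 13 mRNAs took 0.442% to 0.491% of the TPM in mRNA-seq wt and 0.607% to 0.740% in shDicer. On that scale, the chrRNA-seq values were 0.974% and 1.06% in wt, 1.41% and 1.21% in the samples labelled shDicer, 1.61% and 1.59% in shAgo2, and 1.21% and 1.31% in those labelled shDrosha.

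Nearly all member counts were mRNA. The 13 mRNAs held 96.7% to 98.6% of the member counts across the 14 samples, the 2 rRNAs 0.375% to 2.89%, and the 22 tRNAs 0.143% to 1.97%. In cells the 2 rRNAs outnumber the mRNAs, and the methods describe removal of rRNA from the mRNA-seq libraries, so these rRNA values do not measure their cellular level. The tRNAs are short, folded and modified, and libraries of this kind are known to capture them poorly.

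The chromatin fraction held a larger share of mitochondrial reads than cellular RNA, while the summed lists of cytoplasmic mRNAs held a smaller one. The members summed to 4421 CPM of the whole library in chrRNA-seq wt and 1708 CPM in mRNA-seq wt, a ratio of 2.59. Over the same libraries, 6 abundant cytoplasmic mRNAs (EEF1A1, EEF2, ACTB, ACTG1, TUBA1B and TPT1) had a ratio of 0.296, the 86 cytosolic ribosomal protein mRNAs 0.158, and 6 mRNAs translated at the endoplasmic reticulum (HSPA5, HSP90B1, CALR, PDIA3, PDIA4 and SEC61A1) 0.713. Members of both lists of 6 went either way. EEF2 had 1494 to 1497 CPM in mRNA-seq wt and 1859 and 1958 in chrRNA-seq wt. ACTB (62.6 to 78.7, then 111 and 107), ACTG1 (41.1 to 68.5, then 299 and 326), HSPA5 (68.7 to 80.2, then 332 and 390) and SEC61A1 (212 to 214, then 234 and 249) were also higher in chrRNA-seq. EEF1A1, TUBA1B, TPT1, HSP90B1, CALR, PDIA3 and PDIA4 were lower. With the non-coding RNAs RN7SL1 and RN7SL2 of the signal recognition particle added, the endoplasmic reticulum list had a ratio of 0.0324. A list of 5 nuclear RNAs (MALAT1, NEAT1, RN7SK, KCNQ1OT1 and MEG3) had a ratio of 0.273 and was led in mRNA-seq wt by RN7SK, at 17426 to 19025 CPM of the whole library against 1145 and 1359 CPM in chrRNA-seq wt. NEAT1, which is retained in the nucleus, was at 10.3 to 14.6 CPM in mRNA-seq wt and at 648 and 702 CPM in chrRNA-seq wt. These are 2 kinds of library made from different RNA. The sources used here do not give the chrRNA-seq kit or say whether both wt groups are the same line. Doxycycline at 3 µg/ml for 7 days is given for mRNA-seq wt and not stated for chrRNA-seq wt. The ratios are therefore set side by side with no test.

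Between chrRNA-seq groups, the summed lists of cytoplasmic mRNAs had lower means than in wt while the mitochondrial share was higher. RN7SL1, RN7SL2 and the sum of the nuclear RNA list were higher than in wt as well. The members summed to 1.30, 1.60 and 1.26 times wt in the samples labelled shDicer, in shAgo2 and in those labelled shDrosha. The 6 cytoplasmic mRNAs summed to 0.808, 0.728 and 0.609 times wt in the same order. The ribosomal protein mRNAs summed to 0.859, 0.898 and 0.961 times, and the 6 endoplasmic reticulum mRNAs to 0.849, 0.761 and 0.729 times. Samples overlapped with wt for the ribosomal protein mRNAs in those labelled shDrosha (11291 and 9810 CPM, wt 10824 and 11134). The 6 endoplasmic reticulum mRNAs overlapped in those labelled shDicer (1009 and 1310 CPM, wt 1291 and 1440). Within the lists of 6, HSP90B1 had log2 fold changes of 0.34, 0.24 and −0.27, and TPT1 −0.49, −0.73 and 0.083. No other gene of these lists had one above 0. With RN7SL1 and RN7SL2 the endoplasmic reticulum list summed to 1.26, 1.07 and 1.46 times wt. RN7SL2 rose by 0.82 in the samples labelled shDicer (edgeR, adjusted p = 0.00192), and RN7SL1 and RN7SL2 rose by 1.02 and 1.09 in those labelled shDrosha (adjusted p = 0.00807 and 0.00734). RN7SL1 did not pass in the samples labelled shDicer (0.54, adjusted p = 0.0179). In shAgo2 neither passed (RN7SL1 0.27, adjusted p = 0.196, and RN7SL2 0.55, adjusted p = 0.0184). The nuclear RNA list summed to 2.24, 2.04 and 1.48 times wt, with NEAT1 up by 3.38, 3.20 and 1.47 on the log2 scale. Its other members did not all rise. KCNQ1OT1 had log2 fold changes of −0.56, −0.64 and −0.051 (edgeR, adjusted p = 0.000201, 6.28e-05 and 0.790). MALAT1 had −0.44, −0.072 and 0.63 (adjusted p = 0.00392, 0.596 and 0.00807), RN7SK 0.63, 0.50 and 0.66, and MEG3 0.14, 0.097 and 0.34. The part of these RNAs, and of material carried over into the chromatin fraction, in the mitochondrial share was not tested.

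Within the mitochondrial genome, levels are compared between genes per length, as TPM. In chrRNA-seq wt, MT-CO3 and MT-CO1, which encode subunits of cytochrome c oxidase (complex IV), led with means of 634 and 609 TPM, followed by MT-CO2 with 363 TPM and MT-ND5, a subunit of NADH dehydrogenase (complex I), with 353 TPM. MT-CO3 at 617 and 651 TPM and MT-CO1 at 585 and 632 TPM overlapped between the 2 samples, and so these neighbours did not differ beyond their spread. MT-ND4L had a mean of 293 TPM, MT-ND3 270 and MT-ND4 197, all complex I.

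MT-ATP8 and MT-CYB, a subunit of ATP synthase and the one mitochondrially encoded subunit of complex III, had nearly equal chrRNA-seq means of 160 and 158 TPM. MT-ATP6, the other ATP synthase subunit, followed with 125 TPM. The complex I mRNAs MT-ND6, MT-ND2 and MT-ND1 had 99.7, 63.0 and 58.7 TPM, and the rRNAs MT-RNR2 and MT-RNR1, of the large and small mitochondrial ribosomal subunits, came last with 7.44 and 6.28 TPM.

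In mRNA-seq wt the order differed most for MT-ND5. MT-CO3 was again first at 308 TPM, with MT-CO2 at 199, MT-CO1 at 181 and MT-ATP8 at 169 TPM, but MT-ND5 was the 13th of the 15 mRNAs and rRNAs at 15.8 TPM. In TPM, its chrRNA-seq level was 22.4 times its mRNA-seq level. The ratios of the 13 mRNAs ran from 0.909 (MT-ATP6) to this value, with a median of 2.06. MT-ND4, MT-CYB and MT-ND4L came next with 6.60, 4.54 and 4.09, and MT-ATP8 and MT-ND2 were near 1 with 0.945 and 1.02. The short non-coding RNAs named above took 39.2% to 41.5% of the TPM in mRNA-seq wt and 1.68% and 1.69% in chrRNA-seq wt. As CPM of the whole library, MT-ATP6, MT-ATP8 and MT-ND2 were lower in chrRNA-seq wt (101, 15.5 and 88.55) than in mRNA-seq wt (138, 21.3 and 104). The other mRNAs were higher. The limits given above for setting the 2 kinds of library side by side apply here too.

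Of the neighbouring pairs that share a precursor and overlap, MT-ND4L/MT-ND4 had TPM ratios of 1.83 to 2.69 in mRNA-seq and 1.45 to 1.67 in chrRNA-seq. MT-ATP8/MT-ATP6 had ratios of 0.963 to 1.27 in mRNA-seq and 1.16 to 1.39 in chrRNA-seq. Each of these pairs sits on a joint transcript, and reads in the capitals of the sequences above could be assigned to either gene, so the split within a pair is uncertain.

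**Figure D1:**
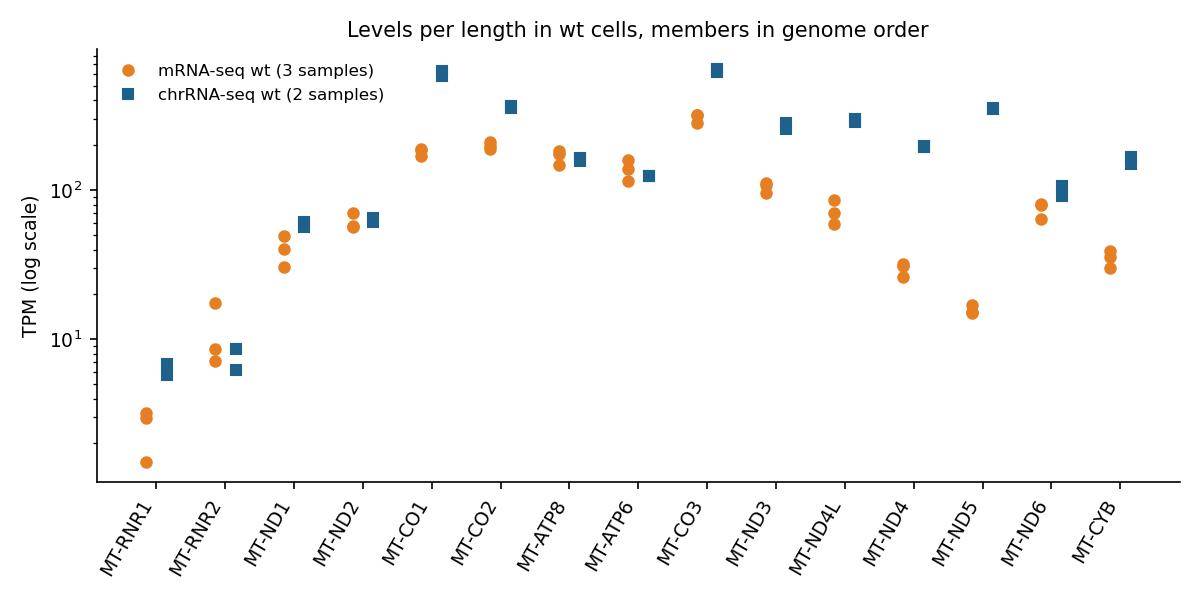
Levels of the 13 mRNAs and 2 rRNAs in wt cells as TPM on a log axis, in genome order, for the 3 mRNA-seq samples (circles) and 2 chrRNA-seq samples (squares). MT-CO3 was highest in both assays (634 and 308 TPM), and MT-ND5 shows the widest gap (353 against 15.8 TPM).

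In mRNA-seq, the 3 mRNAs of complex IV rose in shDicer and no other member passed the test. MT-CO1, the catalytic subunit, had 488, 505 and 516 CPM in wt and 858, 937 and 1049.7 CPM in shDicer (log2 fold change 0.91, SE 0.0820, adjusted p = 4.94e-06). MT-CO2, the subunit that takes electrons from cytochrome c, had 209.8, 217 and 209.6 CPM in wt and 342, 415 and 442 CPM in shDicer (log2 fold change 0.91, SE 0.0929, adjusted p = 1.21e-05). MT-CO3 had 375, 390.0 and 403 CPM in wt and 534, 563 and 637 CPM in shDicer (log2 fold change 0.57, SE 0.0793, adjusted p = 0.000115). The groups did not overlap for any of these. CPM here are scaled between libraries by edgeR, and without wt replicate 2 the call for MT-CO3 was lost (adjusted p = 0.00122, threshold 0.001).

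Of the 37 members, 18 had enough counts to be tested in mRNA-seq. Among these 18, 3 rose, near the 15.6% of all 15090 genes tested, and 0 fell, against 14.2%. The 18 had a median log2 fold change of 0.029, beside 0.011 over all genes. The 7 complex I mRNAs gave 0 calls by edgeR, with 3 at an unadjusted p under 0.05: MT-ND2 was lower in all 3 shDicer samples (log2 fold change −0.29, adjusted p = 0.0338), and MT-ND4 and MT-ND6 were higher in all 3 (0.22 and 0.27, adjusted p = 0.0323 and 0.0375). MT-ND1, MT-ND3, MT-ND4L and MT-ND5 lay between −0.20 and 0.070 with overlapping samples. MT-CYB had a log2 fold change of 0.26 (adjusted p = 0.0920), MT-ATP6 0.024 and MT-ATP8 −0.31, and the rRNAs MT-RNR1 and MT-RNR2 had −0.22 and 0.27.

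In chrRNA-seq, 31 of the 37 members were tested in all 3 comparisons with wt, which share the same 2 wt samples. In the samples labelled shDicer, 3 of the 31 rose, near the 11.0% of all 32874 genes tested, and 0 fell, against 10.5%. MT-CO1 had 1391 and 1585 CPM in wt and 2369.6 and 2339 CPM in the samples labelled shDicer (log2 fold change 0.66, SE 0.0996, adjusted p = 0.000256). MT-CYB had 251 and 292 CPM in wt and 423 and 376 CPM in the same samples (log2 fold change 0.56, SE 0.0932, adjusted p = 0.000561). MT-TS1 had 2.55 and 2.34 CPM in wt and 4.95 and 7.89 CPM in the same samples (log2 fold change 1.39, SE 0.246, adjusted p = 0.000821).

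Without wt replicate 1, the samples labelled shDicer had 0 calls by edgeR, with adjusted p = 0.00694 for MT-CO1, 0.0144 for MT-CYB and 0.00884 for MT-TS1 against a threshold of 0.005. MT-TS1 was also lost without wt replicate 2 (adjusted p = 0.0117) and without shDicer replicate 2 (0.00582). Of the 31 members tested, 28 had a log2 fold change above 0 and 11 an unadjusted p under 0.05, with a median of 0.29 beside 0.0072 over all genes. MT-CO2 and MT-CO3 had log2 fold changes of 0.29 and 0.059 (adjusted p = 0.0296 and 0.639).

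In shAgo2, 7 members rose and 0 fell, against 12.5% and 12.1% of all genes tested. MT-CO1 had 3070.3 and 3211 CPM (log2 fold change 1.08, SE 0.1003, adjusted p = 5.16e-06), more than in any wt sample or any sample labelled shDicer. MT-CYB had 446 and 419 CPM (0.67, SE 0.0933, adjusted p = 0.000121) and MT-TS1 7.77 and 6.88 CPM (1.58, SE 0.241, adjusted p = 0.000244). MT-CO2 rose by 0.49 (adjusted p = 0.00115), MT-TL2 by 0.68 (0.00277), MT-TA by 0.69 (0.00383) and MT-TY by 0.75 (0.00406). Of the 31 members, 29 had a log2 fold change above 0, and the median was 0.42 beside 0.0028 over all genes.

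MT-CO1, MT-CYB and MT-TS1 passed in shAgo2 under each of the 16 alternatives run. The count fell to 3 without wt replicate 1, without wt replicate 2 and without shAgo2 replicate 2, and to 4 without shAgo2 replicate 1. MT-CO2, MT-TL2 and MT-TY were lost in each of these 4 cases (adjusted p from 0.00693 to 0.0528), and MT-TA in 3 of them (0.0120 to 0.0492). MT-TL2 and MT-TA also failed by DESeq2 (adjusted p = 0.00885 and 0.0233). Complex I gave 0 calls by edgeR in shAgo2, with 6 of 7 at an unadjusted p under 0.05, and MT-ND5 was nearest to the threshold (log2 fold change 0.42, adjusted p = 0.00599). MT-CO3 missed it as well (0.35, adjusted p = 0.00742).

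Samples labelled shDrosha had 5 members that rose and 0 that fell at this comparison's threshold of 0.05, against 1.19% and 2.18% of all genes tested. MT-CYB had 380.0 and 379.7 CPM (log2 fold change 0.48, SE 0.0932, adjusted p = 0.0184), above the wt values of 251 and 292. MT-TA rose by 0.87 (adjusted p = 0.0129), MT-TP by 0.50 (0.0260), MT-ND1 by 0.51 (0.0351) and MT-ND2 by 0.42 (0.0283). Each of these was lost without wt replicate 1 and without wt replicate 2, when the count was 0 (adjusted p from 0.0691 to 0.300). It was 8 without shDicer replicate 1, 2 without shAgo2 replicate 1 and 1 without shAgo2 replicate 2. All 31 members had a log2 fold change above 0, with a median of 0.37 beside 0.0049 over all genes, and MT-CO1 had 1957 and 1687 CPM (0.29, adjusted p = 0.130).

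Read member by member, MT-CYB passed in all 3 chrRNA-seq comparisons, with log2 fold changes of 0.56, 0.67 and 0.48 in the samples labelled shDicer, in shAgo2 and in those labelled shDrosha. MT-ATP6 had 0.27, 0.38 and 0.31 in the same order and MT-ATP8 0.31, 0.48 and 0.39, none past the threshold. MT-RNR1 had 0.48, 0.55 and 0.56, and MT-RNR2 0.21, 0.023 and 0.64, again without a call by edgeR. In the samples labelled shDrosha, MT-RNR2 passed by DESeq2 (adjusted p = 0.0155) and by edgeR without the filter on low counts (adjusted p = 0.0164), against a threshold of 0.05.

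**Figure D2:**
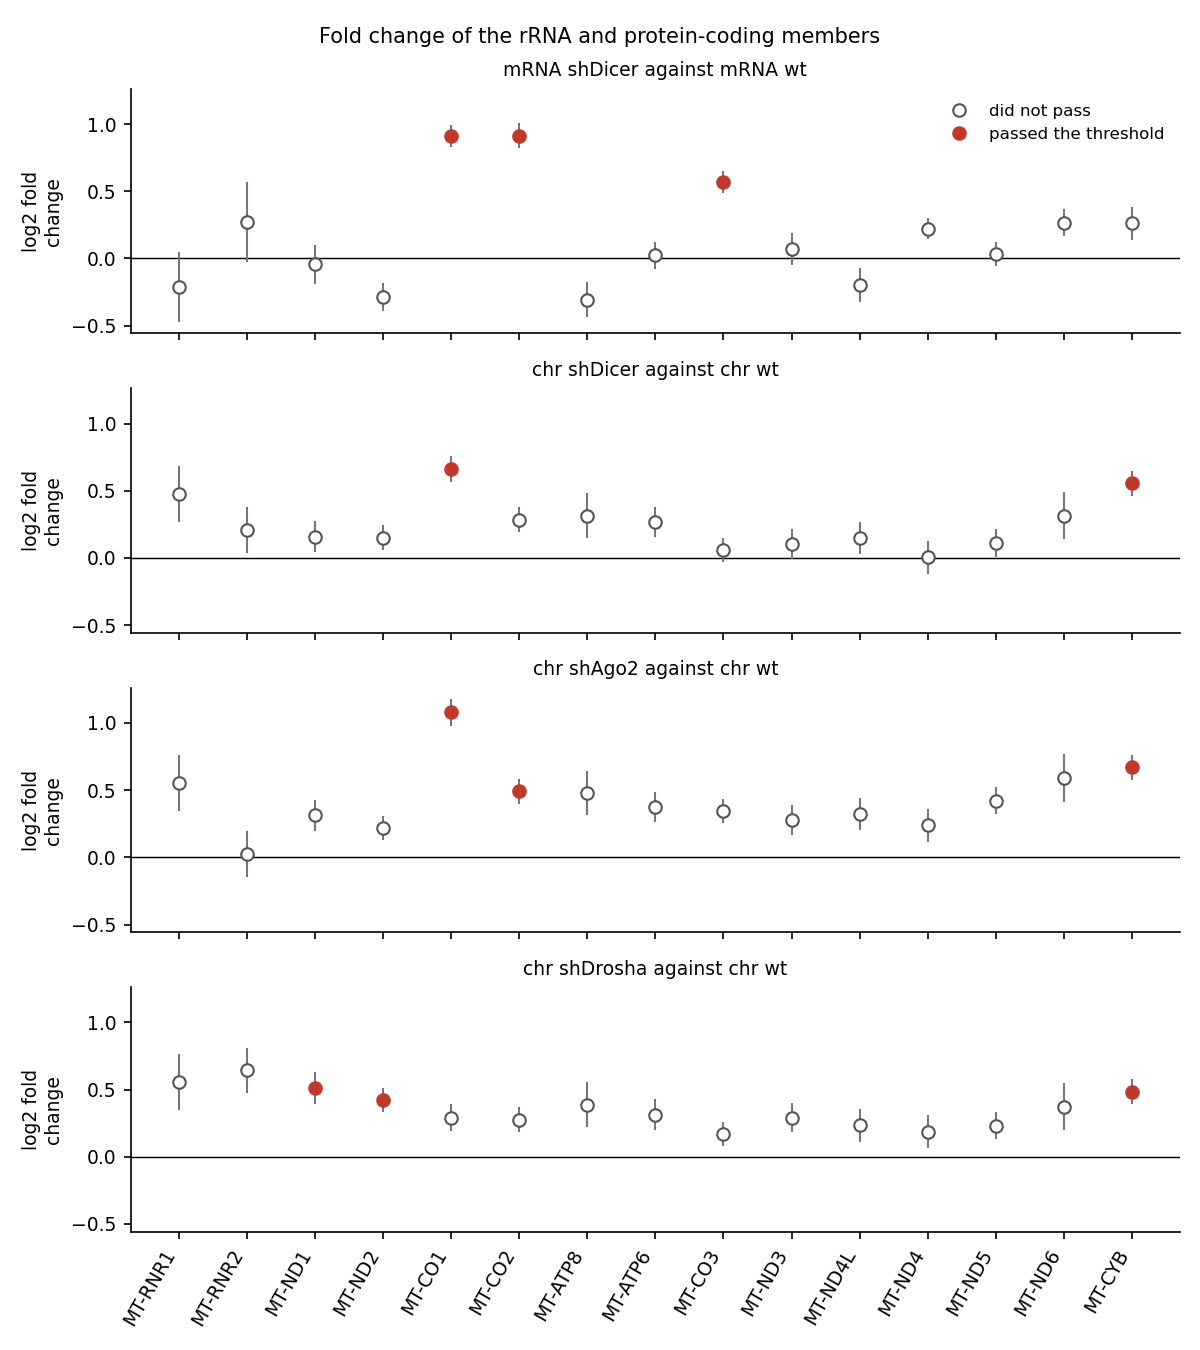
Log2 fold change against wt of the 13 mRNAs and 2 rRNAs in genome order (points, with SE as bars; one panel for each comparison) in mRNA-seq shDicer and in chrRNA-seq shDicer, shAgo2 and shDrosha. Filled points passed the threshold, and MT-CO1 stands at 0.91, 0.66, 1.08 and 0.29 in that order.

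Compared with each other, the samples labelled shDicer and shAgo2 gave 0 calls by edgeR among 31 members, against 1.37% (higher) and 1.34% (lower) of all genes. At an unadjusted p under 0.05 there were 6, and DESeq2 called 1 member as lower. MT-CO1 was lower in the samples labelled shDicer than in shAgo2 by a log2 difference of −0.42 (SE 0.0992, adjusted p = 0.0210). All 13 mRNAs had a log2 difference below 0, from −0.42 to −0.065.

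The mean of the shDicer and shAgo2 samples was also compared with the samples labelled shDrosha, which sets the inducible lines against cells that were transfected. MT-CO1 was higher in the inducible lines (log2 difference 0.58, SE 0.0880, adjusted p = 0.000234) and MT-TQ was lower (−1.21, SE 0.277, adjusted p = 0.00388), against 12.6% and 12.3% of all genes. MT-CO1 passed in each of the 17 alternatives run and MT-TQ in 6 of 17. MT-TQ was at 0.764 to 0.885 CPM in the inducible lines, 1.48 and 2.34 CPM in the samples labelled shDrosha and 1.30 and 1.77 CPM in wt. It was lost without any single library other than shDrosha replicate 1, with adjusted p = 0.00554 and 0.00578 without wt replicate 1 or 2, 0.00863 and 0.00995 without shDicer replicate 1 or 2, 0.0112 and 0.0149 without shAgo2 replicate 1 or 2, and 0.0914 without shDrosha replicate 2.

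MT-CO1 took a larger part of the mitochondrial mRNA in every sample of a doxycycline-induced shRNA line. It held 29.0%, 28.1% and 28.8% of the counts of the 13 mRNAs in mRNA-seq wt, and 36.4%, 36.1% and 37.0% in shDicer. In chrRNA-seq it held 30.8% and 32.1% in wt, 37.4% and 41.7% in the samples labelled shDicer, 41.7% and 42.9% in shAgo2, and 34.2% and 29.7% in those labelled shDrosha. These shares do not depend on library scaling. They differed from wt by 7.92 points in mRNA-seq and by 8.07, 10.9 and 0.470 points in chrRNA-seq. In mRNA-seq the wt cells also had doxycycline.

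The 4 chrRNA-seq samples of the inducible lines did not overlap with the 4 others. No test of this share was planned. MT-CO1 had already passed the edgeR test in these same libraries, so this separation is a description and not separate support. The 4 others pool wt and shDrosha samples. Without MT-CO1, the share of the remaining 36 members in the library was 1.30 times wt in mRNA-seq and 1.16, 1.36 and 1.25 times wt in chrRNA-seq for the samples labelled shDicer, for shAgo2 and for those labelled shDrosha. The TPM ratio of MT-CO1 to MT-ND5 was 1.64 and 1.80 in chrRNA-seq wt, 2.29 and 2.82 in the samples labelled shDicer, 2.66 and 2.77 in shAgo2, and 2.01 and 1.60 in those labelled shDrosha.

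By complex, complex IV held 61.8% to 63.7% of the mRNA counts in mRNA-seq wt and 73.6% to 75.1% in shDicer, while complex I held 22.2% to 25.3% and 15.0% to 17.0%. ATP synthase held 8.86% to 10.6% in wt and 6.20% to 6.51% in shDicer. In chrRNA-seq, complex IV held 51.9% and 53.3% in wt, 55.9% and 59.9% in the samples labelled shDicer, 59.5% and 60.5% in shAgo2, and 54.4% and 49.8% in those labelled shDrosha. MT-ND5 held 22.5% and 21.4% of the chrRNA-seq wt counts and 2.81% to 3.09% of those of mRNA-seq wt.

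**Figure D3:**
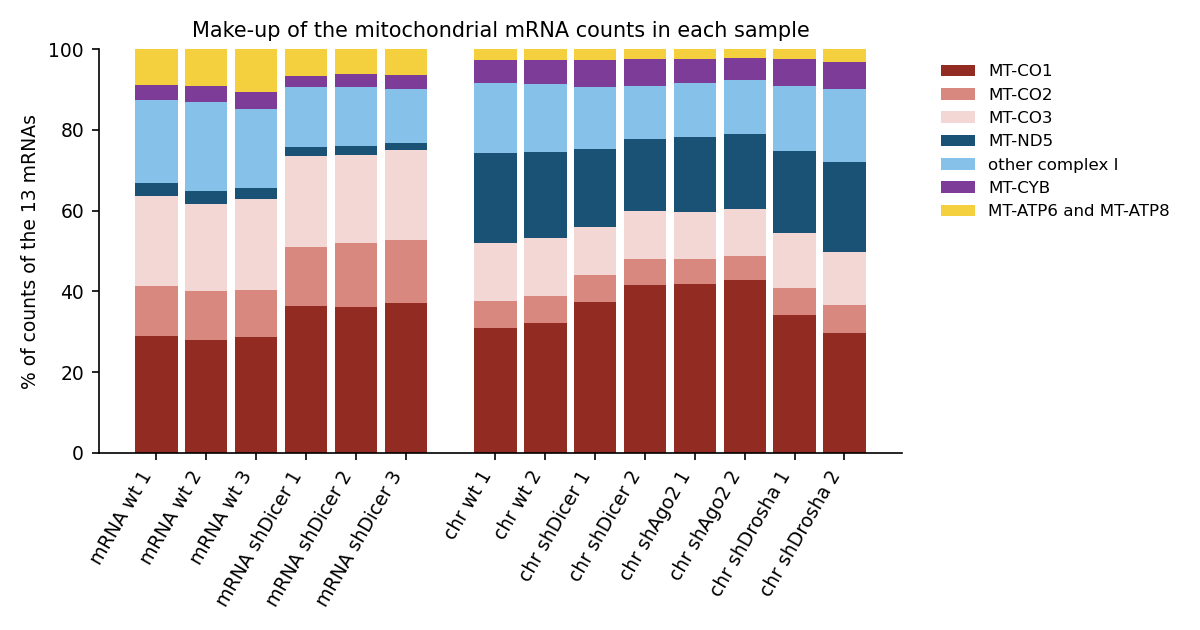
Percent of the counts of the 13 mitochondrial mRNAs (stacked bars from 0 to 100%) carried by MT-CO1, MT-CO2, MT-CO3, MT-ND5, the other complex I mRNAs, MT-CYB and the ATP synthase mRNAs, per sample. MT-CO1 takes 28.1% to 29.0% in mRNA-seq wt against 36.1% to 37.0% in shDicer, and MT-ND5 takes 22.5% and 21.4% in chrRNA-seq wt against 2.81% to 3.09% in mRNA-seq wt.

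Pieces of mitochondrial DNA have been copied into the nuclear chromosomes, which bears on how reads were assigned. Of the 31-base words of MT-CO1, 66.7% also occur in other annotated transcripts, mostly MTCO1P12, and the part was 63.8% for MT-ATP6, 56.9% for MT-ND2, 50.5% for MT-CO2 and 45.0% for MT-CO3. It was 15.1% for MT-ND5, 4.95% for MT-CYB and 0 for each of the 22 tRNAs. Genes named as nuclear copies, 404 in all, held counts equal to 0.538% to 1.14% of the member counts in mRNA-seq and 2.36% to 4.25% in chrRNA-seq. MTATP6P1 on chromosome 1 had the most counts in both assays, 111 to 202 in mRNA-seq and 237 to 380 in chrRNA-seq. MTND2P28, also on chromosome 1, had 36 to 55 counts in mRNA-seq and 61 to 122 in chrRNA-seq. In chrRNA-seq, MTND5P26 on chromosome X had 84 to 251 counts and MTCO1P1 on chromosome 21 had 95 to 177, and in mRNA-seq they had 0 to 3 and 0. With the counts of the copies added to their members, MT-CO1 still passed in mRNA-seq shDicer, in the chrRNA-seq samples labelled shDicer and in shAgo2.

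The tRNA counts fell mostly on genes of the light-strand transcript. Those 8 genes held 64.4% to 81.3% of the tRNA counts in mRNA-seq and 65.8% to 74.1% in chrRNA-seq, and the 14 on the heavy-strand transcript held the rest. The strand marking of the chrRNA-seq kit is not given in the sources used here. Without it, reads of the opposite strand could not be told apart from those of these genes. The tRNA counts of a library were 45 to 116 in mRNA-seq and 1237 to 2241 in chrRNA-seq. MT-TP, MT-TY and MT-TC, for proline, tyrosine and cysteine, had the highest mean CPM in both assays: 24.2, 13.3 and 8.99 CPM in chrRNA-seq, and 1.13, 1.04 and 0.880 CPM in mRNA-seq. All 3 lie on the light-strand transcript. MT-TL2, on the heavy-strand transcript, had a chrRNA-seq mean of 8.92 CPM, close to that of MT-TC, and its group mean was above that of MT-TC in wt (7.09 and 7.01 CPM), in the samples labelled shDicer (9.66 and 8.74 CPM) and in shAgo2 (11.35 and 9.91 CPM), and below it in those labelled shDrosha (7.59 and 10.3 CPM). Of the 22 tRNAs, 16 had more than 3 counts in every chrRNA-seq sample and 3 in every mRNA-seq sample, while MT-TV in chrRNA-seq and 9 tRNAs in mRNA-seq exceeded 3 counts in no sample.

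In mRNA-seq only these 3 tRNAs had enough counts for a test. MT-TC, MT-TY and MT-TP had log2 fold changes of −1.19, −1.18 and −0.97 in shDicer (adjusted p = 0.0183, 0.0156 and 0.0531), and none passed. In chrRNA-seq the 6 tRNAs MT-TF, MT-TV, MT-TL1, MT-TM, MT-TD and MT-TR had too few counts to be tested. Of the 16 tested, 1 rose in the samples labelled shDicer, 4 in shAgo2 and 2 in those labelled shDrosha, and none fell (edgeR, with 6, 11 and 8 at an unadjusted p under 0.05). Over all genes tested, 11.0%, 12.5% and 1.19% rose and 10.5%, 12.1% and 2.18% fell in the same order. MT-TI and MT-TQ, which overlap by 3 bases on opposite strands, were below both wt samples in all samples labelled shDicer and in both of shAgo2 without passing the test, with log2 fold changes of −0.88 and −0.55 for MT-TI and −0.90 and −0.88 for MT-TQ.

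MT-TS1, whose 3′ end lies on the opposite strand at the base after MT-CO1, was set against MT-CO1. For each 1000 counts of MT-CO1, chrRNA-seq wt held 1.83 and 1.47 counts of MT-TS1, the samples labelled shDicer 2.09 and 3.38, shAgo2 2.53 and 2.14, and those labelled shDrosha 1.75 and 2.65. The samples labelled shDicer and shAgo2 were above both wt samples and overlapped with those labelled shDrosha. The methods state strand-specific quantification. The strand marking of the chrRNA-seq kit is not given in the sources used here, and without it reads of MT-CO1 that run past its end could not be told apart from MT-TS1.

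**Figure D4:**
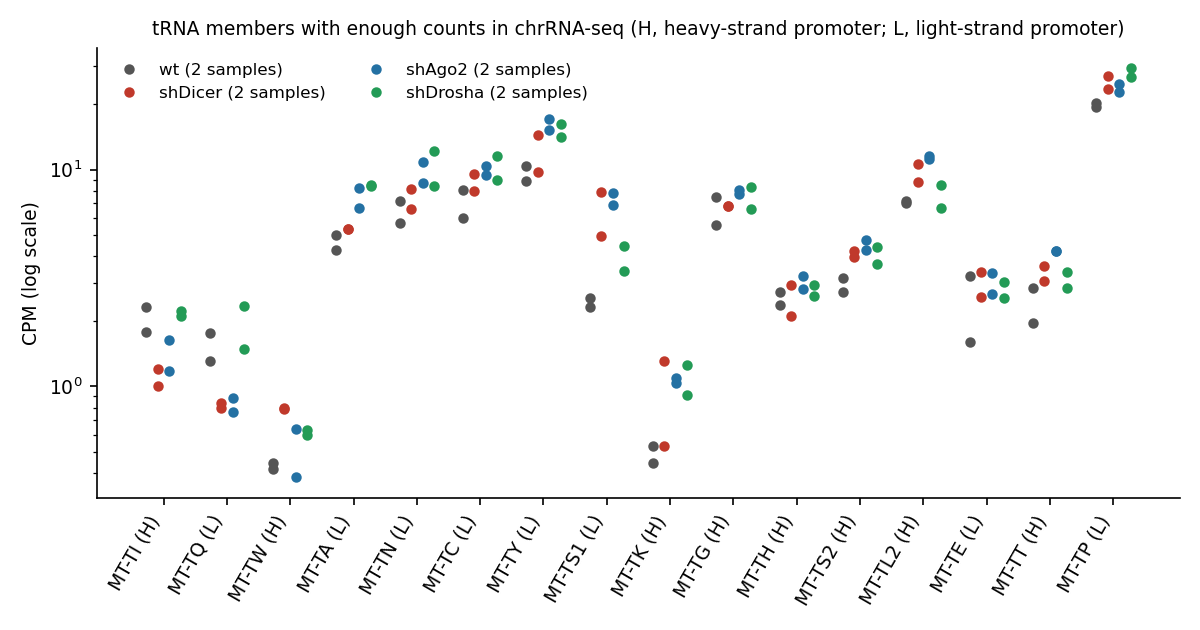
CPM on a log axis of the 16 mitochondrial tRNAs tested in chrRNA-seq, in genome order, per sample (points coloured by group), with H or L for the promoter of each. MT-TP is highest with a mean of 24.2 CPM, and MT-TS1 rises from 2.55 and 2.34 CPM in wt to 7.77 and 6.88 CPM in shAgo2.

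The nuclear genes that maintain, transcribe and translate mitochondrial DNA were counted from fixed lists, in the order mRNA-seq shDicer, then chrRNA-seq samples labelled shDicer, shAgo2 and samples labelled shDrosha, each against wt. Over all genes tested, 14.2%, 10.5%, 12.1% and 2.18% fell and 15.6%, 11.0%, 12.5% and 1.19% rose, with median log2 fold changes of 0.011, 0.0072, 0.0028 and 0.0049. Of 11 genes of mitochondrial DNA maintenance and transcription, 5, 5, 3 and 1 fell (45.5%, 45.5%, 27.3% and 9.09%, against 14.2%, 10.5%, 12.1% and 2.18% of all genes) and 1, 0, 0 and 0 rose, with median log2 fold changes of −0.32, −0.27, −0.18 and −0.0045. TFB2M, a factor that opens the mitochondrial promoters, fell by 1.43, 0.96 and 1.05 on the log2 scale in the first 3, POLG2, the accessory subunit of the mitochondrial DNA polymerase, by 1.07 in the first, and TOP1MT, the mitochondrial topoisomerase, by 0.82 and 0.96 in the chrRNA-seq shDicer and shAgo2 samples. POLRMT, the mitochondrial RNA polymerase, fell by 0.54 in the samples labelled shDrosha.

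Of 19 genes of mitochondrial RNA processing and decay, 4, 3, 4 and 0 fell (21.1%, 15.8%, 21.1% and 0%, against 14.2%, 10.5%, 12.1% and 2.18% of all genes) and 2, 1, 1 and 0 rose. TRMT10C, a subunit of the RNase P that frees the 5′ ends of the tRNAs, fell by 1.28 and 0.62 in the 2 shDicer comparisons. PDE12, which removes poly(A) tails in mitochondria, fell by 0.69 in mRNA-seq shDicer, FASTK, which binds MT-ND6 RNA, by 0.57 and 0.78 in chrRNA-seq shDicer and shAgo2, and the RNA helicase SUPV3L1 by 0.63 in shAgo2.

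Of 12 translation factors, 2, 2, 2 and 0 fell and 0, 0, 0 and 1 rose. The 2 that fell were 16.7% of the list, near the 14.2%, 10.5% and 12.1% of all genes. GFM1, the mitochondrial elongation factor G, fell by 0.89, 0.76 and 0.74 in the first 3 comparisons, and MRRF, the ribosome recycling factor, by 0.58 and 0.62 in chrRNA-seq shDicer and shAgo2. MTRF1L, a release factor, fell by 0.77 in mRNA-seq shDicer and rose by 0.37 in the samples labelled shDrosha. Of 82 mitoribosomal protein genes tested, 26, 28, 30 and 3 fell (31.7%, 34.1%, 36.6% and 3.66%, against 14.2%, 10.5%, 12.1% and 2.18% of all genes) and 3, 2, 2 and 0 rose, with median log2 fold changes of −0.16, −0.31, −0.27 and −0.089. The cytosolic ribosomal protein genes tested fell in 19.5%, 33.7%, 31.3% and 1.20% of cases and rose in 14.6%, 4.82%, 4.82% and 0%. Their median log2 fold changes were 0.029, −0.32, −0.24 and −0.10. MRPL34 fell by 1.45 and 1.33 and MRPL15 by 0.98 and 1.19 in chrRNA-seq shDicer and shAgo2, MRPL1 fell by 1.18 and AURKAIP1 rose by 1.46 in mRNA-seq shDicer, and MRPL28 and MRPS34 fell by 0.65 and 0.55 in the samples labelled shDrosha.

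Enzymes of serine and folate metabolism are known to rise with the factor ATF4 under mitochondrial stress. Of 20 genes of this stress response, 18 were tested in mRNA-seq, where 4 rose and 4 fell (22.2% each, against 15.6% and 14.2% of all genes). PCK2, which makes phosphoenolpyruvate in mitochondria, rose by 1.22 and MTHFD2, of mitochondrial folate metabolism, fell by 1.12. In chrRNA-seq 4, 7 and 2 of 20 fell, beside 10.5%, 12.1% and 2.18% of all genes, and 1, 0 and 0 rose, beside 11.0%, 12.5% and 1.19%. The serine and folate enzymes SHMT2 and PHGDH fell by 1.01 and 0.96 in shAgo2 and by 0.46 and 0.54 in the samples labelled shDrosha, and PSAT1 and the chaperone DNAJA3 by 0.88 and 0.48 in those labelled shDicer.

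Of the nuclear-encoded partners of the same complexes, assembly factors with the same name stems included, 84 were tested in mRNA-seq and 88 in chrRNA-seq. There 19, 20, 27 and 4 fell (22.6%, 22.7%, 30.7% and 4.55%, against 14.2%, 10.5%, 12.1% and 2.18% of all genes) and 7, 1, 2 and 0 rose (8.33%, 1.14%, 2.27% and 0%, against 15.6%, 11.0%, 12.5% and 1.19%), with median log2 fold changes of −0.16, −0.20, −0.29 and −0.13. NDUFAF5, a complex I assembly factor, and UQCRB of complex III fell by 1.20 and 1.01 in mRNA-seq shDicer. The complex III subunit UQCRFS1 rose by 1.07 and NDUFA10 fell by 0.98 in the samples labelled shDicer, in shAgo2 NDUFV1 and NDUFA8 fell by 1.26 and 1.09, and in those labelled shDrosha NDUFA13 and UQCRC1 fell by 0.44 and 0.43.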

How the data were processed

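The deposited values were estimated counts and TPM per transcript, which the authors made with kallisto 0.43.1 on Ensembl release 89 cDNA and non-coding RNA with strand-specific quantification, per sample and without pooling. The labels name polyA RNA for mRNA-seq while the methods describe rRNA removal. Transcripts were matched to GENCODE 44 without version (193697 of 217082, 89.2%), and estimated counts were summed per gene and rounded. 3 counts correspond to 0.174 to 0.294 CPM in mRNA-seq and 0.139 to 0.172 CPM in chrRNA-seq.

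Genes were tested with the quasi-likelihood test of edgeR 4.0.16 (R 4.3.3) with TMM scaling, its filter on low counts and Benjamini-Hochberg adjustment over the 15090 (mRNA-seq) or 32874 (chrRNA-seq) genes kept. All 6 mRNA-seq samples entered one fit and all 8 chrRNA-seq samples another. Thresholds on the adjusted p were 0.001 for mRNA-seq, 0.05 for shDrosha against wt and 0.005 for the other chrRNA-seq comparisons. Shares were compared by exact permutation (scipy 1.17.1). CPM of members and the DICER1 values are TMM-scaled, while CPM "of the whole library", summed marker lists and their other genes are not.

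Alternatives were library-size scaling, DESeq2 1.42.0, no filter on low counts, counts scaled from TPM, scaling without the members, nuclear copies added, a replicate block, only the groups compared, and leaving out each sample. The fits were tested on simulated counts with known changes before use. Every mRNA and rRNA member is named, with the tRNAs that were called or led by mean CPM and, from each other list, the called genes with the largest change, at most 2 a comparison. The members and lists were chosen with earlier results of these data known. Small RNA-seq samples were not analysed here.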

Additional observations from a re-analysis of the deposited data

Results flagged for a closer look

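In chrRNA-seq, 2 members differed between groups when the mean of the inducible lines (shDicer and shAgo2) was tested against the samples labelled shDrosha by edgeR. MT-CO1 was higher in the inducible lines by a log2 difference of 0.58 (adjusted p = 0.000234), and all 4 of their samples, from 2339 to 3211 CPM, were above the 2 samples labelled shDrosha, 1957 and 1687 CPM. MT-TQ was lower by −1.21 (adjusted p = 0.00388), and all 4 samples, from 0.764 to 0.885 CPM, were below 1.48 and 2.34 CPM. Against wt, MT-TQ passed in none of the 3 comparisons. It rested on 14 to 43 counts a library, and its gene shares 3 bases with MT-TI on the opposite strand.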

How the results depend on the processing

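Of 69 results for single members, 1060 alternatives were run: 927 kept direction and side of the threshold, 42 passed where the reported value did not, 65 no longer passed and 26 changed sign. The cause of these changes was not tested. The number of members that rose in shAgo2 was 19 with only the groups compared in the fit. In the samples labelled shDrosha it was 8 without the filter on low counts. Between the samples labelled shDicer and shAgo2, 1 member was lower by DESeq2 and 1 without the filter. Between the inducible lines and the samples labelled shDrosha, 2 were higher and 2 lower without the filter, and 0 were lower with counts scaled from TPM. As TPM, the share ratio was 1.01 in mRNA-seq and 1.50 in shAgo2, and without MT-CO1, an alternative chosen after seeing the data, it was 1.36 in shAgo2. As TPM, the difference in the MT-CO1 percent was 4.93 points in mRNA-seq and 8.18 in shAgo2.

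Same-numbered samples correlated by 0.0455 to 0.0812 in mRNA-seq, under 0.1, so they were not treated as pairs. Different-numbered samples correlated by −0.0931 to 0.0151, lower than each same-numbered pair. With the replicate block, 1 member rose in the samples labelled shDrosha, 5 rose in shAgo2, and 0 were lower in the inducible lines than in the samples labelled shDrosha. Same-numbered samples labelled shDicer and shDrosha correlated by −0.131 and different-numbered ones by 0.131. With 2 samples a group these values mirror each other and do not decide the pairing. With the shDrosha numbers crossed in the block, an alternative chosen after seeing the data, 3 members were higher and 2 lower in the inducible lines.

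Leaving out each sample in turn, 0 to 4 members rose in the samples labelled shDicer, 3 to 10 in shAgo2 and 0 to 8 in those labelled shDrosha, 0 to 1 were lower in shDicer than in shAgo2, and 1 to 2 were higher and 0 to 2 lower in the inducible lines. The mRNA-seq count stayed at 2 to 3. Members whose log2 fold change changed sign in this way, none of them called, were MT-ATP6 (−0.045 to 0.12), MT-ND1 (−0.21 to 0.094), MT-ND3 (−0.040 to 0.18) and MT-ND5 (−0.013 to 0.10) in mRNA-seq. For shDicer in chrRNA-seq they were MT-ATP8 (−0.0098 to 0.58), MT-CO3 (−0.024 to 0.14), MT-ND1 (−0.045 to 0.34), MT-ND3 (−0.066 to 0.25), MT-ND4 (−0.24 to 0.21), MT-ND4L (−0.058 to 0.33), MT-ND5 (−0.056 to 0.26) and MT-RNR2 (−0.047 to 0.50). In shAgo2 this was MT-RNR2 (−0.23 to 0.32), and in the samples labelled shDrosha MT-ND6 (−0.015 to 0.68). MT-ND1 in mRNA-seq was at 0.024 with counts scaled from TPM, and MT-ND4 in the samples labelled shDicer at −0.0071 without the filter, −0.0043 with nuclear copies added and −0.0014 with the replicate block. Of the tRNAs, 19 in mRNA-seq and 6 in chrRNA-seq had too few counts to be tested.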

Other observations

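A run of nuclear copies of mitochondrial genes on chromosome X fell in the chrRNA-seq samples labelled shDicer and in shAgo2. These copies, chosen after their values were seen, were MTND1P32 (chrX:102785667-102786604), MTND2P2 (chrX:102786813-102788387), MTND4P32 (chrX:102799942-102801399) and MTND5P26 (chrX:102803041-102806138). In the samples labelled shDicer, MTND1P32 fell by 0.96, MTND2P2 by 1.44, MTND4P32 by 1.54 and MTND5P26 by 1.07 on the log2 scale, and in shAgo2 they fell by 1.09, 1.40, 0.94 and 0.79 in the same order (edgeR, adjusted p from 2.69e-05 to 0.00402). In the samples labelled shDrosha their log2 fold changes were 0.29, 0.18, 0.45 and 0.42 without passing the test (adjusted p from 0.180 to 0.537). Both comparisons with a call share the same wt samples, in which MTND1P32 had 133 and 142 counts against 70 to 89 in the inducible lines.

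Across all 80 nuclear copies tested in chrRNA-seq, 8 rose and 10 fell in the samples labelled shDicer and the same numbers in shAgo2 (10% and 12.5%, near the 11.0% and 10.5% of all genes in the first comparison and the 12.5% and 12.1% in the second), with median log2 fold changes of 0.017 and −0.079. MTCO1P28, on chromosome 16, had log2 fold changes of 1.06 and 1.12.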
